A study of Canis lupus familiaris with 16 samples.

Results

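The genes described here encode the working parts of the lysosome, together with the transcription factors that switch such genes on and an adaptor that sorts proteins to lysosomes. A list of 47 gene symbols was matched by name to the rows of 16 deposited count files, and 45 of the 47 symbols were found among 39543 symbols in all. The 45 genes comprise 22 hydrolases and luminal cofactors, 6 membrane proteins, 13 subunits of the proton pump (5 of its V0 sector and 8 of its V1 sector), 3 transcription factors (TFEB, TFE3 and MITF) and the adaptor subunit AP3S2. CTSL and GLA were not analysed here. All 45 passed the filter on low counts in both fits used below.

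The study treated 4 cell lines, each a primary culture of a canine hepatocellular carcinoma, for 24 h and sequenced their RNA. The lines are KU-cHCC-001 and KU-cHCC-002, and KU-cHCC-004 and KU-cHCC-005. Each line received sorafenib at 30 µM, toceranib at 15 µM, dimethyl sulfoxide (DMSO, the vehicle of sorafenib) or Dulbecco's phosphate-buffered saline (DPBS, the vehicle of toceranib). Sorafenib and toceranib are inhibitors of receptor tyrosine kinases, and toceranib is a veterinary drug for dogs. Every group shared a culture medium with fetal bovine serum and N-acetyl-L-cysteine, and each combination of line and treatment had 1 library, so the replicates of a treatment were the 4 lines.

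The lysosome is the acidic compartment in which cells break down proteins, lipids, glycans and nucleic acids with acid hydrolases. The vacuolar ATPase pumps protons into it: the V1 sector in the cytosol hydrolyses ATP and the membrane-embedded V0 sector carries the protons, and the pump also works in other acidic organelles. TFEB, TFE3 and MITF are related factors that bind a shared promoter motif of many lysosomal genes, and their activity is set largely by phosphorylation and movement into the nucleus rather than by their mRNA level.

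Total counts ranged from 12008366 to 21943572 per library. The 4 DPBS libraries fell into pairs, 002 beside 005 and 001 beside 004 by their labels. Within the pairs, squared count differences were 2.28 and 2.44 times those of sampling noise. The next closest pair among the 16 libraries, at 11.2, was the DPBS library labelled 002 with toceranib KU-cHCC-005. DMSO of that line was at 39.2 from this toceranib library. Toceranib KU-cHCC-004 and toceranib KU-cHCC-005 came next, at 12.2. The same lines were at 35.0 from each other with DMSO and at 37.2 with sorafenib. These close toceranib libraries counted as separate lines in the fits, so p-values for toceranib may be too small. Toceranib KU-cHCC-002 was at 20.0 from DPBS labelled 004, at 61.9 from DMSO of KU-cHCC-004 and at 64.8 from its own DMSO. For toceranib KU-cHCC-004 the values were 25.2 (DPBS labelled 002) and 33.5 (own DMSO). Toceranib KU-cHCC-001 went the other way, with 102.7 (DPBS labelled 004) and 43.85 (own DMSO). The cause was not tested. The summed level of 5 mesenchymal genes that mark KU-cHCC-001 was 10556 to 15002 CPM (counts scaled to a common library size) in the other libraries of that line and 1998 CPM in the DPBS library labelled 001, so that library went against its label. DPBS was therefore compared without pairing, and the toceranib and DMSO libraries of KU-cHCC-001 were left out of comparisons with it. The summed level of 9 fibroblast markers was 385 and 429 CPM in the DPBS libraries labelled 002 and 005. With toceranib it was 351 CPM in KU-cHCC-005, 116 CPM in KU-cHCC-001, 48.2 CPM in KU-cHCC-004 and 3.46 CPM in KU-cHCC-002. That sum was 2.54 to 104 CPM with DMSO and 6.83 to 65.2 CPM with sorafenib, highest in KU-cHCC-001 for both. COL3A1 was at 0 in all DMSO and sorafenib libraries and at 51.7 CPM in toceranib KU-cHCC-005. The sum of 10 macrophage markers was at most 7.03 CPM, except for 321 CPM in toceranib KU-cHCC-001, nearly all from CD74. Of 5 hepatocyte markers, 3 stayed under 1 CPM in every library of each group. In such bulk RNA, fewer cells of a type and less RNA per cell cannot be told apart.

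Levels below are CPM on library sizes scaled by TMM (trimmed mean of M-values), and 4 values in a row follow the order of the line numbers, from KU-cHCC-001 to KU-cHCC-005. Differences are log2 fold changes with their standard error (SE) from edgeR's quasi-likelihood test, called at a Benjamini-Hochberg adjusted p under 0.05 over all genes tested. Nothing in the labels says that the libraries came from repeated cultures. In the fit paired by line, the p-values therefore rest on how far the treatment differences varied between the lines. That spread was estimated over the 12 sorafenib, toceranib and DMSO libraries together. It is not the spread of a single drug's difference from DMSO. In the unpaired fit with DPBS, close pairs of libraries counted as separate replicates. Its p-values do not measure a spread between 4 lines and may be too small. Levels of different genes are not compared because no transcript lengths were used.

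Together the 45 genes took 0.588% ± 0.0614 (SD, n = 4) of all counts in the DMSO libraries. Sorafenib libraries gave 0.696% ± 0.108, toceranib libraries 0.776% ± 0.0889 and DPBS libraries 0.646% ± 0.0266, with no test made of these sums. By class, the hydrolases took 0.332% ± 0.0710 of the counts with DMSO and 0.385% ± 0.0945 with sorafenib, and 0.434% ± 0.0984 in the toceranib and 0.385% ± 0.0112 in the DPBS libraries. These ranges overlapped between all groups. The 6 membrane proteins took 0.0949% to 0.116% with DMSO, 0.109% to 0.147% with sorafenib and 0.166% to 0.182% with toceranib, so every toceranib library stood above every DMSO, sorafenib and DPBS library (DPBS 0.111% to 0.147%). That separation rested on CD63: without it the other 5 membrane proteins took 0.0562% to 0.0837% with toceranib, overlapping with DMSO (0.0445% to 0.0615%), sorafenib (0.0638% to 0.0889%) and DPBS (0.0520% to 0.0658%). The V1 sector took 0.0684% ± 0.00991 with DMSO, 0.0899% ± 0.0179 with sorafenib and 0.0612% ± 0.00983 with toceranib, while the V0 sector took 0.0729% ± 0.0147, 0.0857% ± 0.0184 and 0.0998% ± 0.0302. With toceranib the V0 share was above that of DMSO in all 4 lines, and the V1 share was below it in 3 of 4 lines. The V0 share with toceranib was 0.143% in KU-cHCC-001 and 0.0740% to 0.0975% in the other lines. DPBS libraries gave 0.0632% ± 0.00899 for V0 and 0.0623% ± 0.00233 for V1. The V1 mean of toceranib was thus close to that of its own vehicle.

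**Figure D1:**
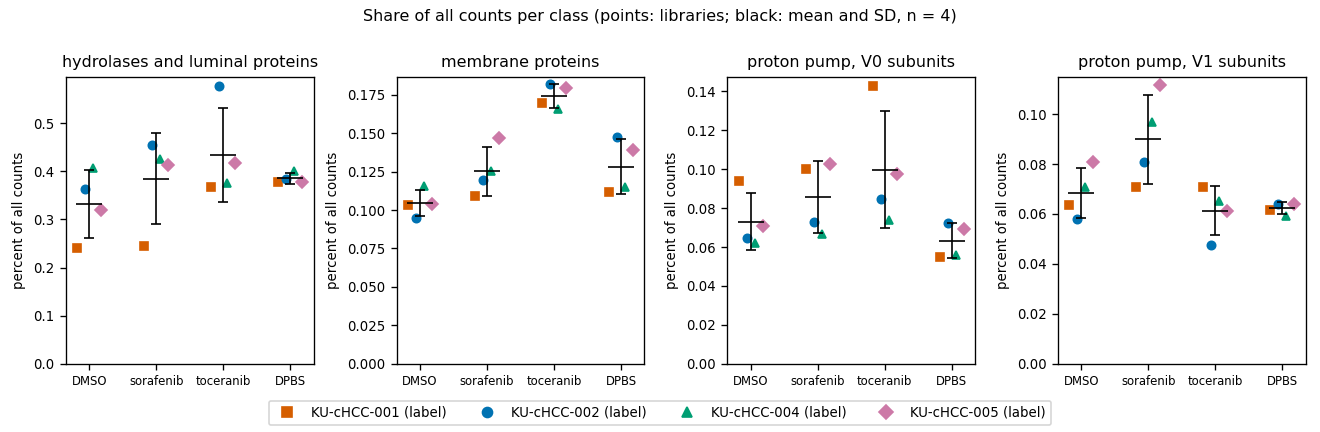
Share of all counts taken by each class of lysosomal genes (percent, vertical axis) in each library, by treatment. Points are libraries, marked by the line on their label, and black lines and bars are the mean and SD of 4 libraries. The membrane proteins of the toceranib libraries lie between 0.166% and 0.182%, above all others, and without CD63 (not drawn) their share is 0.0562% to 0.0837% and overlaps with the other groups.

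KU-cHCC-001 stood apart from the other lines in 10 of these genes, in shares near those of all genes. Over its DMSO, sorafenib and toceranib libraries against the 9 such libraries of the other lines, 4 of the 45 genes were higher without overlap (8.89%, against 10.2% of all genes) and 6 were lower without overlap (13.3%, against 9.33%). ATP6V0D1, the V0 subunit d, was at 361 to 625 CPM in KU-cHCC-001 and 70.1 to 146 CPM in the other lines. MITF, the factor best known from melanocytes, was at 15.8 to 41.7 CPM there and 2.68 to 13.2 CPM elsewhere. The other higher genes were GLB1, the lysosomal beta-galactosidase, and LIPA, the acid lipase that cleaves cholesteryl esters.

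CTSH, a cathepsin with aminopeptidase activity, was at 55.2 to 117 CPM in KU-cHCC-001 and at 410 to 855 CPM in the other lines. CTSB, a cysteine cathepsin, was at 200 to 537 CPM against 552 to 972 CPM. IDUA, which removes iduronic acid from glycosaminoglycans, was at 4.31 to 5.47 CPM against 7.74 to 45.6 CPM. The pump subunits ATP6V0E1, ATP6V1B2 and ATP6V1E1 were the other lower genes. KU-cHCC-001 thus carried more of 1 V0 subunit and less of another than the other lines did. These are differences between single lines and were not tested.

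**Figure D2:**
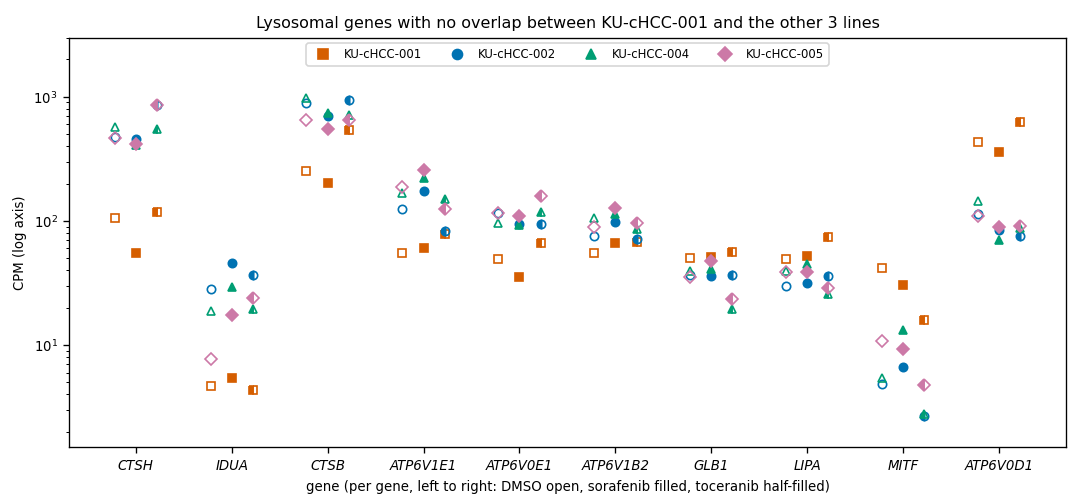
Level (CPM, log axis) of the 10 lysosomal genes whose 3 libraries of KU-cHCC-001 (DMSO, sorafenib and toceranib) did not overlap with the 9 libraries of the other lines. ATP6V0D1 lies at 361 CPM or more in KU-cHCC-001 and at 146 CPM or less elsewhere.

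With sorafenib, 4 of the 45 genes rose against DMSO of the same line and none fell by edgeR's test. The genes that rose were NPC1, SMPD1 and PSAP, which serve lipid handling, and ATP6V0B of the V0 sector. LIPA, which also serves lipid handling, was at 0.07 ± 0.22 and did not pass (edgeR adjusted p = 0.848). The share called higher was 8.89%, close to the 9.59% of all 14938 genes tested. None of the 45 was called lower, against 10.1% of all genes, and DESeq2 called none lower and 5 higher (11.1%), against 12.5% of all genes in each direction. At an unadjusted p under 0.05, 12 of the 45 passed in either direction (26.7%, against 34.5% of all genes). The median difference of the 45 was 0.17, against -0.02 for all genes, and 30 of 45 were positive. In 4 of 4 lines, 17 were higher (37.8%, against 26.3% of all genes) and 6 were lower (13.3%, against 24.5%). Sums of liver marker genes also moved with the drug: 6 markers of bile duct epithelium summed to 2545, 31784, 24102 and 24659 CPM with DMSO and to 1837, 18038, 15383 and 16869 CPM with sorafenib. The 5 hepatocyte markers summed to 33.7, 194, 134 and 142 CPM with DMSO and to 22, 142, 92.9 and 88.8 CPM with sorafenib. Both sums were lower in 4 of 4 lines, and their part in the sorafenib results was not tested. The markers may be transcripts of the lines themselves, so the sums do not show a separate cell population.

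NPC1 is the membrane protein that exports cholesterol from the lysosome. Its level was 43.7, 21.5, 35.1 and 37.0 CPM with DMSO and 61.8, 66.4, 89.1 and 83.1 CPM with sorafenib. Every sorafenib library stood above every DMSO library. NPC1 rose by 1.13 ± 0.23 (SE, log2), a 2.19-fold change (edgeR adjusted p = 0.00796), and by 0.50, 1.60, 1.33 and 1.16 within the lines. RMC1, a gene that overlaps NPC1 in the RefSeq table, was higher by 0.97 ± 0.16 with sorafenib (edgeR adjusted p = 0.00385). Because the strand setting of the counting is not given, reads of NPC1 and RMC1 may not be fully separated. NPC2, the luminal partner that hands cholesterol to NPC1, did not pass the test, with a difference of 0.16 ± 0.29 (edgeR adjusted p = 0.739).

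SMPD1 encodes acid sphingomyelinase, which cleaves sphingomyelin to ceramide. Its level was 26.2, 66.3, 43.7 and 28.6 CPM with DMSO and 33.8, 165, 74.5 and 74.6 CPM with sorafenib. The groups overlapped, since the sorafenib library of KU-cHCC-001 lay below the DMSO libraries of KU-cHCC-002 and KU-cHCC-004, and each line was higher with sorafenib. SMPD1 rose by 0.96 ± 0.23 (edgeR adjusted p = 0.0156), least in KU-cHCC-001, by 0.36, and most in KU-cHCC-005, by 1.37. PSAP encodes prosaposin, the precursor of the saposins that help hydrolases reach sphingolipids. It was at 594, 555, 874 and 580 CPM with DMSO and 795, 1033, 1208 and 1178 CPM with sorafenib. All 4 lines were higher, and PSAP rose by 0.67 ± 0.20 (edgeR adjusted p = 0.0362). ASAH1, the acid ceramidase that acts after SMPD1, was at 0.41 ± 0.21 and did not pass (edgeR adjusted p = 0.198).

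Of the 13 proton pump subunits, 11 had a positive difference with sorafenib and 1 was called. ATP6V0B, a subunit of the proton-carrying ring, was at 73.5, 92.8, 80.3 and 114 CPM with DMSO and 129, 116, 109 and 230 CPM with sorafenib. It was higher in 4 of 4 lines, and the KU-cHCC-005 library lay far above the other sorafenib libraries. The rise of 0.64 ± 0.21 only just passed (edgeR adjusted p = 0.049998). All 8 V1 subunits had a positive difference, from 0.13 for ATP6V1D to 0.56 for ATP6V1A, with a median of 0.29. None of the 8 was called by edgeR, and 1 passed an unadjusted p under 0.05. Of the V0 subunits, ATP6V0D1 was at -0.54 ± 0.21 and ATP6V0E1 at -0.24 ± 0.16, neither called, and both were lower in 4 of 4 lines.

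The remaining hydrolases differed among themselves. The cathepsins CTSA, CTSB and CTSH were lower in 4 of 4 lines, with differences of -0.48, -0.34 and -0.43, and none passed the test. IDS and IDUA, both of heparan and dermatan sulfate breakdown, were higher in 4 of 4 lines, at 0.58 ± 0.23 (edgeR adjusted p = 0.0989) and 0.65 ± 0.26 (0.101). LAMP2, a major glycoprotein of the lysosomal membrane, missed the threshold at 0.66 ± 0.21 (edgeR adjusted p = 0.0507), while its relative LAMP1 was at 0.17 ± 0.22. TFEB, TFE3 and MITF had differences of -0.28, -0.17 and 0.25, none called. TFEB was at 9.80, 19.5, 20.2 and 12.9 CPM with DMSO and 12.4, 15.5, 12.8 and 10.5 CPM with sorafenib. These TFEB ranges overlapped.

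The count of called genes depended on which libraries entered the fit. With the 8 sorafenib and DMSO libraries alone, 12 genes were higher and 4 lower (all genes: 18.3% higher and 18.2% lower), the added ones being TPP1, IDS, IDUA, ASAH1, LAMP2, ATP6V0A1, ATP6V1C1 and ATP6V1E1, and CTSA, CTSB, CLCN7 and ATP6V0D1. Without KU-cHCC-001 there were 7 higher and 2 lower (all genes: 13% and 13.4%), and without KU-cHCC-002 1 higher and none lower (all genes: 2.86% and 3.05%). Without KU-cHCC-004 (all genes: 1.8% and 2.04%) or KU-cHCC-005 (all genes: 2.57% and 2.51%) edgeR called none of the 45 in either direction. Calls over all genes thus fell as well when any of these 3 lines was left out.

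**Figure D3:**
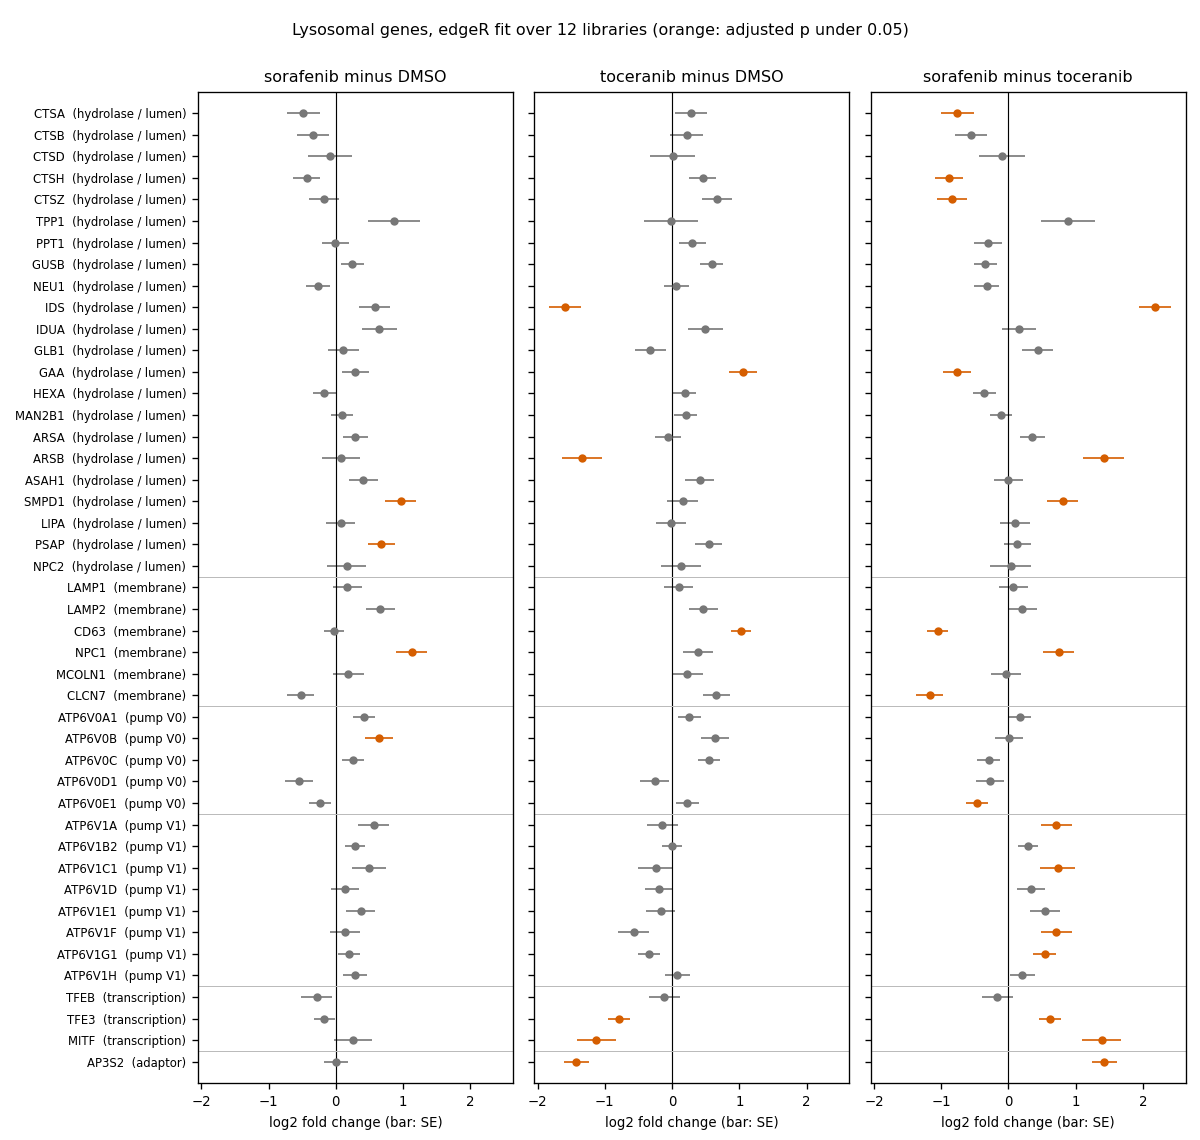
Log2 fold change (horizontal axis) of each of the 45 lysosomal genes for sorafenib minus DMSO, toceranib minus DMSO and sorafenib minus toceranib, from 1 fit over 12 libraries. Points are estimates, bars are 1 SE, and orange marks an edgeR adjusted p under 0.05. For toceranib minus DMSO, IDS lies lowest at -1.60, followed by AP3S2 and ARSB, and CD63 and GAA lie highest.

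With toceranib, against DMSO of the same line, 2 of the 45 genes rose (4.44%, against 4.31% of all 14938 genes) and 5 fell (11.1%, against 3.15% of all genes). CD63 and GAA rose, and IDS, ARSB, AP3S2, TFE3 and MITF fell. The median of the 45 was 0.13, against -0.01 for all genes. This comparison also holds the difference between the vehicles, so for each of the 7 genes the DPBS values are given as well. Drug and vehicle cannot be told apart in the comparison with DMSO alone. Sorafenib and toceranib were set against the same DMSO libraries, so their differences from DMSO are not independent.

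**Figure D4:**
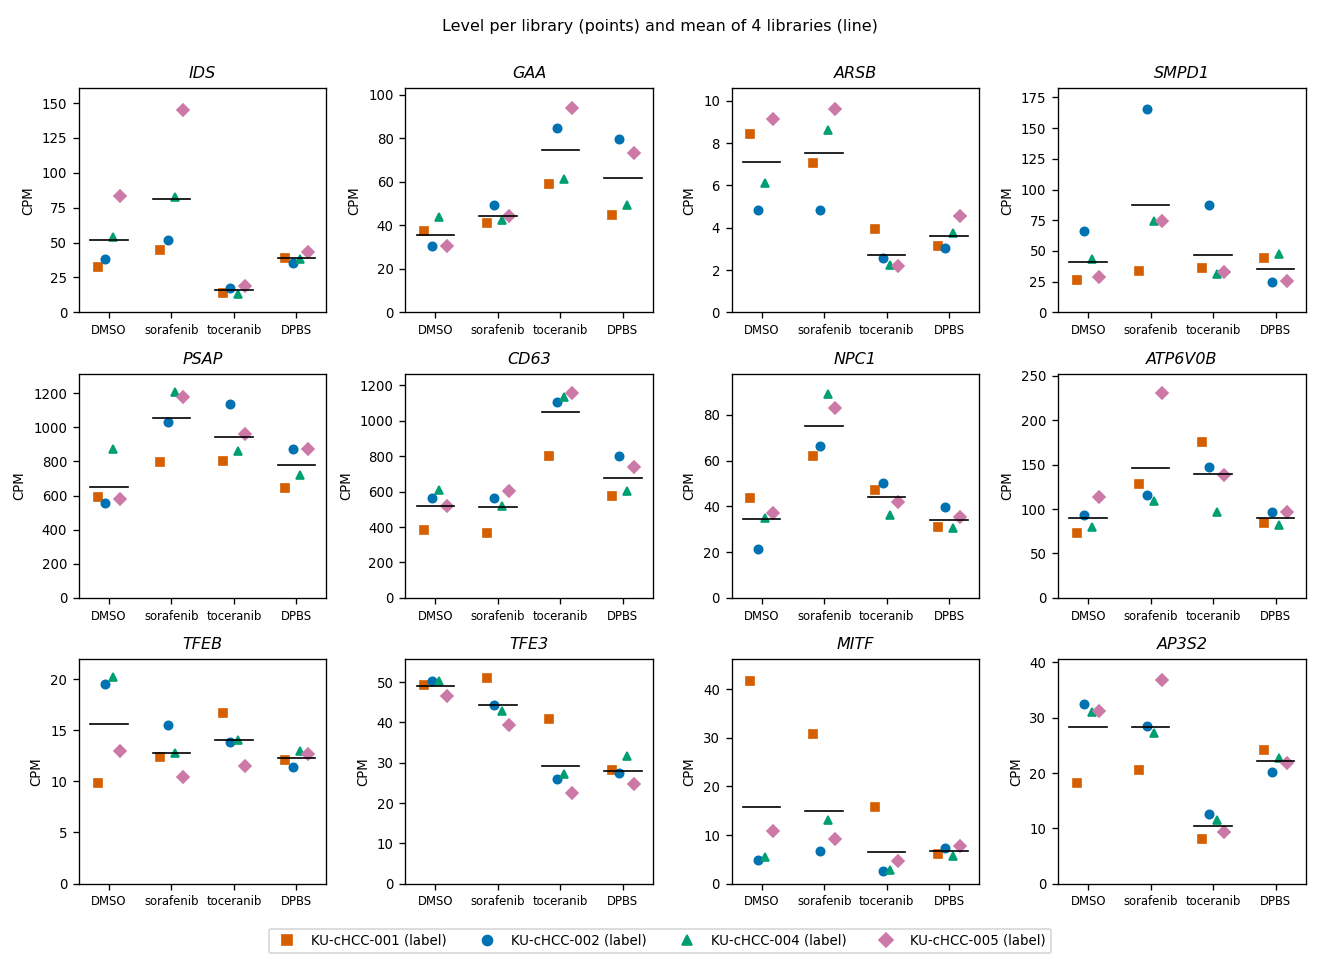
Level (CPM) of 12 lysosomal genes in each library, by treatment. Points are libraries, marked by the line on their label, and lines are means of 4 libraries. IDS and AP3S2 lie lower in all 4 toceranib libraries than in any other library.

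IDS encodes iduronate sulfatase, which removes sulfate groups from heparan and dermatan sulfate. Its level was 32.2, 38.3, 54.1 and 83.6 CPM with DMSO and 14.2, 17.3, 13.0 and 18.6 CPM with toceranib. It was 35.6 to 43.4 CPM over the 4 DPBS libraries. Every toceranib library stood below every library of the other groups. IDS fell by 1.60 ± 0.24 against DMSO on the log2 scale (edgeR adjusted p = 0.0115). Against DPBS it was at -1.24 ± 0.25 (edgeR adjusted p = 0.114), a call that edgeR did not make and DESeq2 did (adjusted p = 0.000492). Both tests counted close pairs of DPBS libraries as separate replicates, so these p-values may be too small.

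AP3S2 is a small subunit of the AP-3 adaptor complex, which sorts membrane proteins from endosomes to lysosomes and related organelles. It was at 18.2, 32.5, 31.1 and 31.2 CPM with DMSO, at 8.02, 12.5, 11.4 and 9.32 CPM with toceranib, and at 20.1 to 24.2 CPM with DPBS. The toceranib libraries again lay below all others. AP3S2 fell by 1.43 ± 0.18 against DMSO (edgeR adjusted p = 0.00852), by 1.14, 1.34, 1.40 and 1.69 within the lines. The DPBS libraries were lower than DMSO as well, by 0.53 ± 0.15 (edgeR adjusted p = 0.0359). Against DPBS, AP3S2 was at -0.97 ± 0.15 (edgeR adjusted p = 0.0718, DESeq2 1.86e-07). Here too both tests counted close pairs of DPBS libraries as separate replicates, so the p-values may be too small. Of the other AP-3 subunits, AP3B1 fell by 0.67 ± 0.16 against DMSO (edgeR adjusted p = 0.0370), and AP3D1, AP3M1 and AP3S1 were at -0.21, -0.32 and -0.38, not called.

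ARSB encodes arylsulfatase B, which acts on dermatan and chondroitin sulfate. Its level was low, 8.44, 4.82, 6.11 and 9.12 CPM with DMSO and 3.93, 2.56, 2.23 and 2.20 CPM with toceranib. The groups did not overlap, and ARSB fell by 1.34 ± 0.30 (edgeR adjusted p = 0.0301). DPBS libraries were at 3.02 to 4.56 CPM, below all DMSO libraries and overlapping with the toceranib library of KU-cHCC-001, and the difference from DPBS was -0.60 ± 0.29 (edgeR adjusted p = 0.406). ARSA, the sulfatase of sulfatide breakdown, was at -0.06 ± 0.19 against DMSO.

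The transcription factors TFE3 and MITF fell against DMSO, and TFEB did not pass. TFE3 was at 49.3, 50.3, 50.3 and 46.5 CPM with DMSO and 40.8, 25.9, 27.1 and 22.5 CPM with toceranib. The ranges did not overlap, and the fall of 0.79 ± 0.16 (edgeR adjusted p = 0.0237) was smallest in KU-cHCC-001, at 0.27. The DPBS libraries were at 24.8 to 31.7 CPM, so TFE3 was lower with DPBS than with DMSO by 0.82 ± 0.13 (edgeR adjusted p = 0.00593). Against DPBS, toceranib was at -0.13 ± 0.14 (edgeR adjusted p = 0.740). MITF was at 41.7, 4.88, 5.43 and 10.7 CPM with DMSO and 15.8, 2.68, 2.78 and 4.75 CPM with toceranib. It was lower in 4 of 4 lines, by 1.13 ± 0.29 (edgeR adjusted p = 0.0411), and the groups overlapped because of the high level in KU-cHCC-001. The DPBS libraries were at 5.68 to 7.67 CPM, above the 3 toceranib libraries of the other lines, with a difference of -0.96 ± 0.34 (edgeR adjusted p = 0.261). TFEB was at 16.7, 13.9, 14.1 and 11.5 CPM with toceranib and differed from DMSO by -0.12 ± 0.23.

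CD63 is a tetraspanin of late endosomes, lysosomes and exosomes. It was at 381, 566, 608 and 517 CPM with DMSO, at 798, 1104, 1134 and 1155 CPM with toceranib and at 572 to 801 CPM with DPBS. The toceranib range lay above the DMSO range, and it touched the DPBS range through KU-cHCC-001. CD63 rose by 1.02 ± 0.15 against DMSO (edgeR adjusted p = 0.0114), with 0.90 to 1.16 in the 4 lines. Against DPBS the difference was 0.76 ± 0.15 (edgeR adjusted p = 0.114, DESeq2 0.000374), with the same limit from the close pairs of DPBS libraries. Without the toceranib library of KU-cHCC-005, which held fibroblast transcripts, the rise against DMSO was 1.01 ± 0.18 (edgeR adjusted p = 0.0494).

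GAA, the acid alpha-glucosidase that degrades glycogen, was at 37.2, 30.6, 44.0 and 30.5 CPM with DMSO and 58.9, 84.8, 61.2 and 94.0 CPM with toceranib. The groups did not overlap, and GAA rose by 1.05 ± 0.21 (edgeR adjusted p = 0.0206). The DPBS libraries labelled 002 and 005, those with fibroblast transcripts, were at 79.7 and 73.0 CPM, and those labelled 001 and 004 were at 44.5 and 49.5 CPM. GAA was higher with DPBS than with DMSO by 0.80 ± 0.25 (edgeR adjusted p = 0.0491), and toceranib differed from DPBS by 0.40 ± 0.24 (edgeR adjusted p = 0.505). The part of the fibroblast transcripts in the GAA difference was not tested.

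Among the other membrane proteins and V0 subunits, CLCN7, the chloride-proton exchanger of the lysosome, was at 0.65 ± 0.20 (edgeR adjusted p = 0.0671). ATP6V0C, which encodes the main ring subunit of the pump, was at 0.55 ± 0.17 (0.0663) without overlap between toceranib and DMSO, and ATP6V0B was at 0.63 ± 0.21 (0.0794). None was called by edgeR. DESeq2 called these 3 genes, CTSZ, GUSB and PSAP besides CD63 and GAA, so that it had 8 higher (17.8%, against 9.18% of all genes) and 5 lower (11.1%, against 6.45%). All 6 membrane proteins had a positive difference, from 0.10 to 1.02. The V1 subunits did not follow: 6 of 8 were negative, with a median of -0.19 and the lowest value, -0.57, at ATP6V1F.

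The calls again depended on which lines entered the fit. The 7 calls of toceranib minus DMSO fell to 0 when KU-cHCC-002, KU-cHCC-004 or KU-cHCC-005 was left out, while without KU-cHCC-001 there were 3 higher and 4 lower (all genes: 12.1% and 8.41%). In those 3 fits edgeR called few genes of any kind: 1 higher and 6 lower of 15497 without KU-cHCC-002 (0.00645% and 0.0387%), 3 and 1 of 15523 without KU-cHCC-004 (0.0193% and 0.00644%), and 1 and 0 of 15404 without KU-cHCC-005 (0.00649% and 0%). Without the toceranib library of KU-cHCC-005 alone, IDS, AP3S2 and CD63 passed (all genes: 0.282% higher and 0.141% lower). With toceranib from KU-cHCC-001 and KU-cHCC-002 alone, whose fibroblast marker sums were 116 and 3.46 CPM, no gene passed, and the differences were -1.10 for IDS, -1.28 for AP3S2 and 1.02 for CD63.

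Against its own vehicle, DPBS, no gene of the 45 was called for toceranib by edgeR, which called 1 of 15195 genes (0.00658%). With so few calls over all genes, a missing call does not show that a gene was unchanged. At an unadjusted p under 0.05, 14 of the 45 (31.1%) passed, against 13.6% of all genes, and with each close pair of DPBS libraries summed to 1 replicate 5 of the 45 passed (11.1%, against 5.4% of all genes). DESeq2 called NEU1 and CD63 higher and IDS and AP3S2 lower (4.44% in each direction, against 1.36% of all genes higher and 2.34% lower). DESeq2 was not run with the close pairs summed. The median of the 45 was 0.27, against 0.04 for all genes. Of the classes, the V0 subunits were all positive (0.38 to 0.62), the 6 membrane proteins were all positive (0.07 to 0.76), and the V1 subunits were split, 4 positive and 4 negative.

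The toceranib libraries of 3 lines lay above the 4 DPBS libraries for 9 genes (20%, against 8% of all genes) and below them for 6 (13.3%, against 10.2%). The 9 were NEU1, MAN2B1, NPC2, LAMP1, CD63, CLCN7, ATP6V0A1, ATP6V0C and ATP6V0D1, and the 6 were IDS, ARSB, ATP6V1A, ATP6V1C1, MITF and AP3S2. When KU-cHCC-001 was added, 7 were still above (15.6%, against 3.89%) and IDS and AP3S2 were still below (4.44%, against 5.69%). NEU1, the lysosomal sialidase, was at 90.3, 90.7 and 82.8 CPM in those 3 toceranib libraries and at 62.4, 62.6, 69.9 and 69.9 CPM with DPBS, a difference of 0.43 ± 0.11 (edgeR adjusted p = 0.155). With DMSO the 3 lines were at 99.3, 97.6 and 102 CPM, so toceranib lay between the vehicles.

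The vehicles were compared in the same fit. DPBS minus DMSO had 1 of the 45 genes higher (2.22%, against 8.19% of all genes) and 10 lower (22.2%, against 8.36%). The 10 were NEU1, GLB1, LIPA and NPC2 in the lumen, ATP6V0D1, ATP6V1D, ATP6V1E1 and ATP6V1F of the pump, TFE3 and AP3S2. ATP6V0D1 was at 63.3 to 67.6 CPM with DPBS and at 109 to 146 CPM in the 3 DMSO libraries, without overlap, and was lower by 0.91 ± 0.14 (edgeR adjusted p = 0.00475). ATP6V1F, a small V1 subunit, was at 43.0 to 56.7 CPM against 80.0 to 122 CPM and was lower by 1.03 ± 0.24 (edgeR adjusted p = 0.0199). When each close pair of DPBS libraries was summed to 1 replicate, none of the 11 calls was left (all genes: 0.0319% higher and 0% lower). None was left either without the DPBS libraries labelled 002 and 005 and toceranib KU-cHCC-005, which held fibroblast transcripts, a fit that kept 1 close pair of DPBS libraries (all genes: 0.0132% and 0.00662%). Over all genes nearly every call was thus lost in both fits. The vehicle and the origin of the DPBS cells cannot be told apart.

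The direct comparison of the drugs within lines used the same 12 libraries as the comparisons with DMSO, so it is not independent of them. Doses and vehicles both differed, so drug and vehicle cannot be told apart in it. TFE3, ATP6V1F, AP3S2 and GAA, all called here, were also called between the vehicles, lower with DPBS than with DMSO except for GAA, which was higher. Sorafenib stood above toceranib for 11 of the 45 genes (24.4%, against 18.3% of all genes) and below it for 7 (15.6%, against 20.1%). The largest difference was that of IDS, 2.18 ± 0.24 (edgeR adjusted p = 0.000188), with sorafenib libraries at 44.3, 52.1, 83.0 and 145 CPM. AP3S2 differed by 1.42 ± 0.18, CD63 by -1.05 ± 0.15 and CLCN7 by -1.17 ± 0.20 (edgeR adjusted p = 0.000384, 0.000632 and 0.00162). For IDS, AP3S2, CD63 and CLCN7 the sorafenib and toceranib libraries did not overlap.

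The V1 subunits ATP6V1A, ATP6V1C1, ATP6V1F and ATP6V1G1 were higher with sorafenib than with toceranib, by 0.54 to 0.73, and all 8 had positive differences. ATP6V1A, the catalytic subunit, was at 105, 144, 219 and 153 CPM with sorafenib and 114, 85.4, 91.3 and 85.2 CPM with toceranib, higher with sorafenib in 3 of 4 lines. ATP6V0E1 of the V0 sector was lower with sorafenib, by 0.47 ± 0.16 (edgeR adjusted p = 0.0427). SMPD1, NPC1, ARSB, TFE3 and MITF made up the rest of the higher genes. The other lower genes were luminal: CTSA, CTSH, CTSZ and GAA. CTSH was at 55.2, 457, 410 and 417 CPM with sorafenib and 117, 853, 552 and 855 CPM with toceranib, lower with sorafenib in 4 of 4 lines by 0.89 ± 0.20 (edgeR adjusted p = 0.00664).

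**Figure D5:**
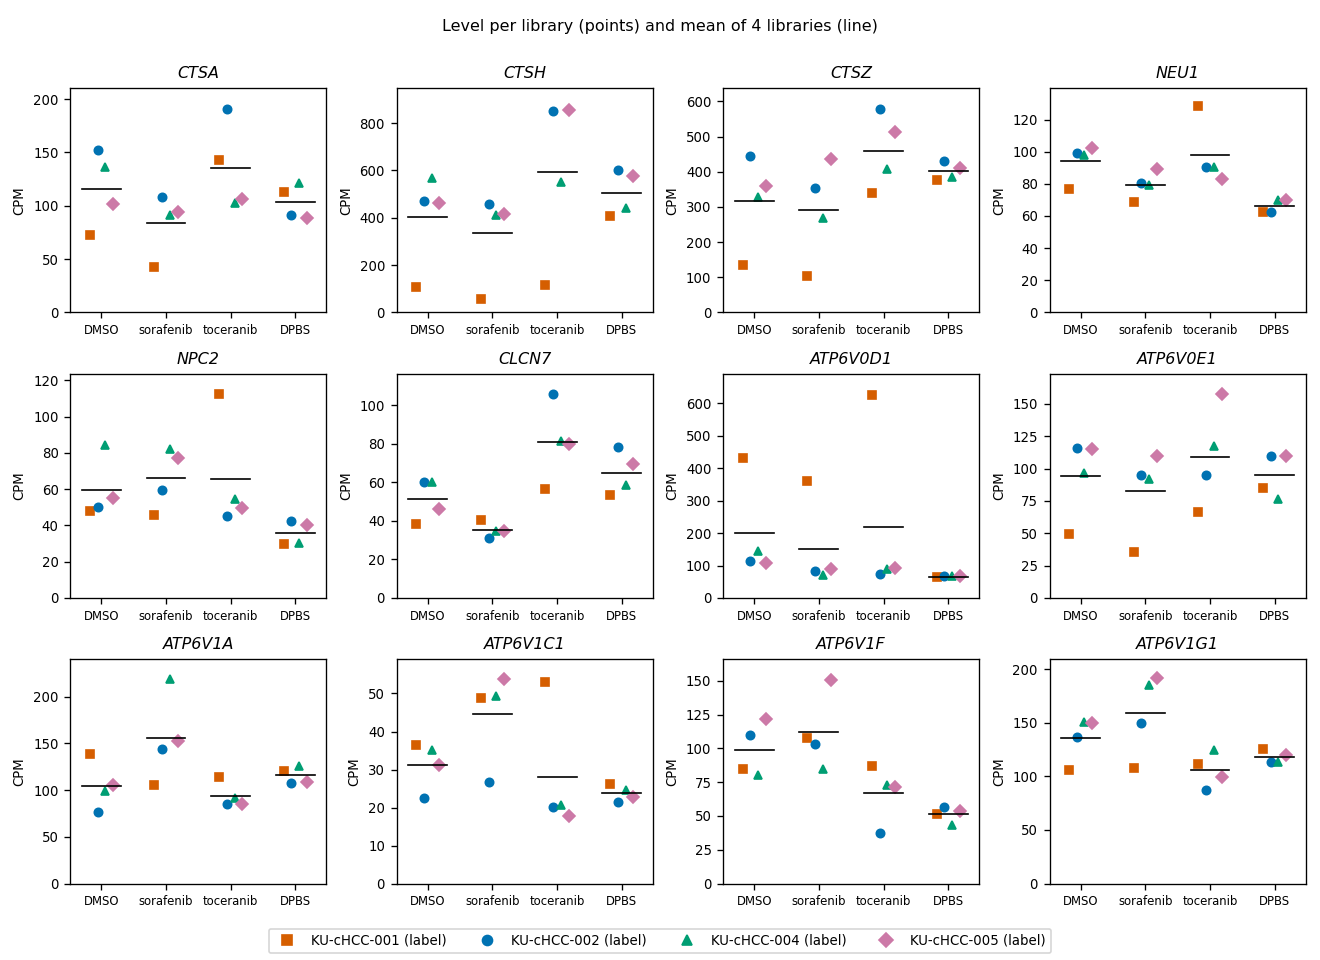
Level (CPM) of 12 further lysosomal genes in each library, by treatment, with lines at the mean of 4 libraries. CLCN7 lies at 31.2 to 40.6 CPM with sorafenib and 56.3 to 106 CPM with toceranib, and ATP6V0D1 in KU-cHCC-001 lies far above the other lines.

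Outside the 45 genes, 106 further lysosomal genes of 5 lists were in the files and 98 were tested in the fit with DMSO. The lists were chosen with earlier results of these data known, so their shares, here and below, are no independent test. With sorafenib 21 of the 98 rose (21.4%, against 9.59% of all genes) and 6 fell (6.12%, against 10.1%), and their median was 0.29, against -0.02 for all genes. The lists gave 7 higher and 3 lower of 33 further hydrolases, 6 and 2 of 28 membrane proteins, 3 and 0 of 6 pump subunits, 3 and 0 of 18 sorting genes, and 2 and 1 of 13 nutrient-sensing genes. ATP6V0A2, a V0 subunit of the Golgi and endosomal pump, was at 53.7, 30.7, 36.5 and 36.3 CPM with DMSO and 106, 99.8, 125 and 81.5 CPM with sorafenib. The groups did not overlap, and it rose by 1.39 ± 0.18 (edgeR adjusted p = 0.00122). TCIRG1 and ATP6V0E2 were the other pump genes that rose.

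CD68, a lysosomal glycoprotein best known from macrophages, rose by 2.33 ± 0.39 from a low level (edgeR adjusted p = 0.00361). It was at 0.566 to 0.943 CPM with DMSO and at 1.94, 5.03, 3.87 and 6.42 CPM with sorafenib, where the 10 macrophage markers summed to 0.776 to 4.48 CPM. The calcium channels MCOLN2 and MCOLN3 rose by 1.45 and 1.33, HYAL1, a hyaluronidase, by 1.33, and MFSD8, a membrane protein of the lysosome, by 1.24. The 6 that fell were TTYH3, LAMTOR1, TPCN2, DPP7, AGA and DNASE2, led by TTYH3 with -1.23 ± 0.17 (edgeR adjusted p = 0.00174). LAMTOR1 anchors the Ragulator complex, which recruits mTORC1 to the lysosome, and fell by 0.99 ± 0.23, while the Rag GTPase gene RRAGD rose by 1.02 ± 0.26.

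With toceranib against DMSO, 10 of the 98 rose (10.2%, against 4.31% of all genes) and 1 fell (1.02%, against 3.15%), and their median was 0.14, against -0.01 for all genes. Of the 33 further hydrolases 6 rose and none fell. CTSS and CTSK, cathepsins of immune cells and of bone-resorbing cells, led. CTSS was at 2.67, 1.63, 10.6 and 6.75 CPM with DMSO and 26.3, 11.8, 20.4 and 18.7 CPM with toceranib, and rose by 2.17 ± 0.41 (edgeR adjusted p = 0.0191). CTSK was at 2.89 to 5.40 CPM with DMSO and 25.5, 12.9, 9.81 and 19.3 CPM with toceranib, and rose by 2.05 ± 0.35 (edgeR adjusted p = 0.0160). For both genes the toceranib libraries lay above all DMSO libraries.

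Both genes were also high in the DPBS libraries with fibroblast transcripts, labelled 002 and 005, where CTSK was at 16.1 and 11.1 CPM and CTSS at 23.3 and 22.3 CPM. In the other DPBS libraries CTSK was at 5.53 and 5.98 CPM and CTSS at 6.49 and 9.82 CPM. Against DPBS, toceranib differed by 0.16 ± 0.58 for CTSS and 0.56 ± 0.38 for CTSK, and edgeR called none of the 97 tested genes of these lists, against 19 at an unadjusted p under 0.05 (19.6%, against 13.6% of all genes). SIAE, CTSV, DPP7 and LAPTM4A rose against DMSO by 1.22, 0.99, 0.86 and 0.86. DPP7, an aminopeptidase, fell with sorafenib by 0.69 ± 0.22 and rose with toceranib.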

How the data were processed

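Raw read counts per gene symbol were deposited by the authors, 1 file for each of 16 libraries, as whole numbers without normalization. Per the submitters' processing notes, TopHat was used. Which version, counter, strand setting, build and annotation is not given in the sources used here. Libraries were made with a strand-keeping kit, per the labels' protocols. Each file held 39954 entries, and 500 entries that shared 89 symbols were summed. The 45 genes matched the RefSeq table of the UU_Cfam_GSD_1.0 assembly, used for names and for which genes overlap (16 of 45 genes overlap another, so their counts are uncertain).

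The genes and lists were chosen with earlier results of these data known. Counts were tested with edgeR 4.0.16 (limma 3.58.1, R 4.3.3; filterByExpr, TMM, robust two-sided quasi-likelihood F-tests, Benjamini-Hochberg adjustment). Sorafenib, toceranib and DMSO (12 libraries, 14938 genes, 6 residual degrees of freedom) were fitted with the cell line as block. The labels pair these libraries by line, and their deviations from the treatment means correlated at 0.515 to 0.892 within lines. By this measure each library matched its own line best. By squared count differences, with treatment means left in, this did not always hold: toceranib KU-cHCC-002 was nearer to DMSO of KU-cHCC-004 (61.9) than to its own DMSO (64.8). DPBS was fitted unpaired with toceranib and DMSO of 3 lines (10 libraries, 15195 genes, 7 residual degrees of freedom). Within-line differences are of log2(CPM + 0.5). Counts come from reads without molecular identifiers. Genes were named if called for a drug against DMSO or DPBS, and TFEB, TFE3 and MITF in every case. Of the wider lists, at most the 6 largest called genes per comparison and direction were named, and other names were chosen after their values were seen. The fits were tested on simulated counts. Alternatives included DESeq2 1.42.0, other scaling, no filter, no block and left-out libraries. One pair of alternatives was added after seeing the data: the unpaired fit without the libraries that held fibroblast transcripts (DPBS labelled 002 and 005, and toceranib KU-cHCC-005).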

Additional observations from a re-analysis of the deposited data

Results flagged for a closer look

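For 12 of the 45 genes, the level in each treatment and the difference within lines were examined for a library that stood far from the other 3 of its group. Of 72 groups, 8 had one, and chance flags about 1 in 20 groups. KU-cHCC-001 gave 4 of the 8: AP3S2 was low with DMSO (18.2 CPM), CD63 was the lowest with toceranib (798 CPM), and MITF was high with DMSO (41.7 CPM) and with toceranib (15.8 CPM). KU-cHCC-002 gave SMPD1, high with toceranib (87.1 CPM), and the difference of NPC1 between toceranib and DMSO (log2 1.20, against 0.05 to 0.17 in the other lines). In KU-cHCC-004, PSAP was high with DMSO (874 CPM). In KU-cHCC-005, ATP6V0B was high with sorafenib (230.3 CPM), and ATP6V0B is also the gene whose call lay nearest to the threshold.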

How the results depend on the processing

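No called value of the 45 genes changed direction under any alternative. Of the values recomputed for called genes, 25 of 40 kept their call for sorafenib minus DMSO, 36 of 77 for toceranib minus DMSO, 134 of 198 for sorafenib minus toceranib and 74 of 165 for DPBS minus DMSO. IDS, AP3S2, CD63 and CLCN7 kept their call in all 11 alternatives of sorafenib minus toceranib.

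For sorafenib minus DMSO, the count higher (4) became 1 with no replicate block and 12 with 8 libraries alone, and the count lower (0) became 4 with 8 libraries alone. Leaving out 1 line gave 0 to 7 higher and 0 to 2 lower. For toceranib minus DMSO (2 higher, 5 lower), DESeq2 gave 8 higher, no replicate block gave 0 and 0, and toceranib from KU-cHCC-001 and KU-cHCC-002 alone gave 0 and 0. Leaving out 1 line or the toceranib library of KU-cHCC-005 gave 0 to 3 higher and 0 to 4 lower. For sorafenib minus toceranib (11 higher, 7 lower), no replicate block gave 4 and 3, toceranib from KU-cHCC-001 and KU-cHCC-002 alone gave 2 higher, and all 16 libraries with the replicate block gave 4 lower. Leaving out 1 line or library gave 4 to 17 higher and 4 to 5 lower.

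For toceranib minus DPBS (0 and 0), DESeq2 gave 2 higher and 2 lower and the fit of the 2 groups alone gave 1 lower (IDS). For DPBS minus DMSO (1 higher, 10 lower), the count higher became 0 with the replicate block on 16 libraries, with size factors by RLE, with all 4 lines, with the 2 groups alone, with DPBS summed to 2 replicates and without the libraries that held fibroblast transcripts. The count lower became 2 with the replicate block, and 0 with all 4 lines, with DPBS summed to 2 replicates and without the libraries that held fibroblast transcripts. Leaving out 1 library gave 0 to 1 higher and 3 to 9 lower. The cause of these changes was not tested. Depth limits the low genes most: ARSB rests on 26 counts in the library of 12008366 counts, toceranib KU-cHCC-005.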

Other observations

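Among the 13 nutrient-sensing genes of the lysosome, the vehicle libraries differed in 6. Of the 13, all but the transcription factor gene TFEC belong to the machinery that carries amino acid signals to mTORC1. Ragulator (LAMTOR genes) anchors the Rag GTPases, and FLCN with FNIP1 acts on RRAGC and RRAGD. With DPBS minus DMSO in the unpaired fit, 2 of the 13 were higher and 4 lower by edgeR, against 8.19% of all genes higher and 8.36% lower. FNIP1 was at 28.8 to 30.6 CPM in the 4 DPBS libraries and at 11.1, 19.0 and 15.9 CPM with DMSO in the 3 lines other than KU-cHCC-001, higher by 0.96 ± 0.19 (edgeR adjusted p = 0.0129). FLCN was higher by 0.81 ± 0.15 (edgeR adjusted p = 0.0103). LAMTOR1, LAMTOR2 and LAMTOR5 were lower by 0.95, 0.76 and 0.92, and LAMTOR3 was at 0.05. LAMTOR5 was at 28.0 to 32.6 CPM with DPBS and at 45.1 to 63.3 CPM in those DMSO libraries. RRAGD was lower by 0.86 ± 0.24 (edgeR adjusted p = 0.0350). Toceranib differed from DPBS by -0.13 for FNIP1 and 0.18 for LAMTOR1, neither called. These genes were named after their values were seen. When each close pair of DPBS libraries was summed to 1 replicate, edgeR called none of the 13, and 5 genes higher and none lower of all 15681. FNIP1 was then at 0.97 ± 0.27 (edgeR adjusted p = 0.131) and LAMTOR5 at -0.90 ± 0.26 (0.136). None of the 13 was called without the DPBS libraries labelled 002 and 005 and toceranib KU-cHCC-005 either.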
